A study of Mus musculus with 4 samples.

Results

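Long non-coding RNA (lncRNA) genes whose start or end lies at a binding peak of the tagged protein HA-hWDR5 are described here. They are the lncRNA genes that RefSeq places on the mouse build mm10 (GRCm38.p6) with a peak summit within 1 kb of either gene end in the T12h or the T48h peak list. Gas5 and the Snhg genes, which host small nucleolar RNAs (snoRNAs), were left out. Of 12708 lncRNA genes, 128 met this rule, or 1.01%, against 687 of 21883 protein-coding genes (3.14%) and 954 of 49939 genes of all kinds (1.91%). The members were chosen by the positions of the peaks themselves, so these shares and all peak values below are descriptions with no test.

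The Rx:GFP reporter line used, mouse embryonic stem cells that report on the eye field gene Rx, lacked Wdr5 and carried a doxycycline-inducible, HA-tagged human WDR5. Embryoid bodies were formed by SFEBq, a serum-free culture, in medium with 5% KSR, 2% Matrigel was added at day 1, and day 6 chromatin was used. Doxycycline was added at T12h in the first group and at T48h in the second, and the start of this clock is not stated. Both groups carry the knockout and the tagged rescue protein, and an uninduced or untagged library was not analysed here. Each group had 1 anti-HA ChIP-seq library and 1 input library, so no value below has a replicate. After removal of duplicates the ChIP libraries held 55539917 tags at T12h and 67116740 at T48h. The peak lists held 1197 and 660 peaks.

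WDR5 is a WD-repeat protein that holds together the MLL and SET1 complexes, which methylate lysine residues of histone H3 at active promoters, and it also binds MYC. In human cells the lncRNA HOTTIP is known to bind WDR5. Many lncRNAs start close to a protein-coding promoter and run in the opposite direction, so a peak between such a pair of starts belongs to both genes. The assay reads DNA in chromatin, and neither transcription of these lncRNA genes nor binding of WDR5 to their RNA was measured.

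A gene-end peak was found at T12h for 114 of the 128 genes (0.897% of lncRNA genes, against 2.93% of protein-coding genes and 1.74% of all genes). At T48h it was found for 33 (0.26%, against 1.06% and 0.659%). At both times it was found for 19 (0.15%, against 0.859% and 0.489%), at T12h alone for 95 and at T48h alone for 14. A protein-coding gene end lay within 1 kb of the same summit for 65 members (50.8%), and the other 63 had none. The share with such a neighbour was 9 of 19 among genes found at both times, 49 of 95 at T12h alone and 7 of 14 at T48h alone. The members were served by 116 peaks at T12h and 36 at T48h, since 3 peaks each lay at 2 members and 7 members had more than 1 peak at one time. Of these peaks, 60 at T12h and 16 at T48h had a protein-coding gene end within 1 kb. Among all 1197 and 660 peaks, a further 506 and 181 had one but served no member. Measured from the ends of the lncRNA gene, a protein-coding end lay within 1 kb for 74 of 128 members (57.8%). The same held for 2029 of all 12708 lncRNA genes (15.97%).

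The 5 members with the highest T12h scores had a peak at both times, and 3 of them sat beside a protein-coding gene end. MACS, the peak caller, gives each peak a score, 10 times the negative log10 of its p-value, and a fold, tags over the background estimated around the peak. Both are the authors' own values. D330041H03Rik, which lies beside Rnps1, the gene of a splicing protein, had the highest score of all members at T12h, with 344 tags over 906 bp and a fold of 34.31, and 258 tags and a fold of 18.15 at T48h. Gm15420, which starts opposite Rps10, a small-subunit ribosomal protein gene, had a fold of 32.93 with 349 tags at T12h and 22.39 with 247 tags at T48h. LOC115486436 lies next to Csnk1d, a casein kinase gene, and its fold was 32.74 at T12h and 24.63 at T48h, the highest of all members at T48h. For Gm15420 the summits lay 60 and 162 bp from a listed start of the lncRNA at T12h and T48h, and 60 and 162 bp from the Rps10 end. At LOC115486436 the summits were 18 bp apart, 215 and 233 bp from the end of Csnk1d. Peaks at these 3 genes cannot be assigned to the lncRNA or to its neighbour.

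The next 2 members of this rank had no protein-coding gene end within 1 kb of the summit. 5430416N02Rik, listed also as Adapt33, had 298 tags over 807 bp and a fold of 25.3 at T12h, and 309 tags over 1136 bp and a fold of 19.44 at T48h. Its summit lay 182 bp into the gene at T12h and 137 bp at T48h, outside any protein-coding gene. Gm12843 starts inside Rnf220, the gene of a ubiquitin ligase, and had the highest fold of all members at T12h, 36.69, in 1 peak of 281 tags over 1195 bp. At T48h the same stretch held 3 peaks, with folds of 14.7, 10.06 and 6.96, and the strongest summit was 4 bp from that of T12h. The 1195 bp and the 522 bp of the strongest T48h peak are not the same region, so their 281 and 89 tags are not directly comparable.

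The promoters of the 4 of these genes that the RefSeq promoter table lists are shown, since they carry the strongest shared peaks. Each runs from 250 bases before the listed start to 50 bases from it, 5′ to 3′ on the strand of the lncRNA. Capitals mark matches on either strand to CACGTG (the E-box), CCGGAAG (the core that ETS factors bind), CCAAT, TGACGTCA (the cAMP response element), TCCCGC (bound by E2F factors), AANATGGC (bound by YY1) and the palindromic motif of NRF1.
5430416N02Rik (chr5:100429486-100429785, minus strand): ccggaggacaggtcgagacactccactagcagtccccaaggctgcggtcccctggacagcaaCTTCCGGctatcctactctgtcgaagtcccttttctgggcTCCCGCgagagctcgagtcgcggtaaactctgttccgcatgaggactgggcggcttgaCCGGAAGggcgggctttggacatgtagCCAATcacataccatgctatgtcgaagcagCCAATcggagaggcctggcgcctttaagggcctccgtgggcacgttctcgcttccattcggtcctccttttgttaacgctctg
Gm15420 (chr17:27634994-27635293, plus strand): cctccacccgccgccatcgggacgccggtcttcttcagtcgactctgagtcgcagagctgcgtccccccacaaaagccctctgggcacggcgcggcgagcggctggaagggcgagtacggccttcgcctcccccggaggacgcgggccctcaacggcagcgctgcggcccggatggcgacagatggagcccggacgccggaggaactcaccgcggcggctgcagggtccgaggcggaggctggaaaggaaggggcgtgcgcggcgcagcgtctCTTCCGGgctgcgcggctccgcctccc
LOC115486436 (chr11:120991114-120991413, plus strand): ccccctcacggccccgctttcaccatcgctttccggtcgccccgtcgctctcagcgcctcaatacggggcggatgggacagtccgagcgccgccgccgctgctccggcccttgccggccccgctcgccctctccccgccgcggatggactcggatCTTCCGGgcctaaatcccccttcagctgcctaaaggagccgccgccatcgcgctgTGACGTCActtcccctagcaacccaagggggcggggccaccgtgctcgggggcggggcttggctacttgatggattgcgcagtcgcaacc
Gm12843 (chr4:117289110-117289409, plus strand): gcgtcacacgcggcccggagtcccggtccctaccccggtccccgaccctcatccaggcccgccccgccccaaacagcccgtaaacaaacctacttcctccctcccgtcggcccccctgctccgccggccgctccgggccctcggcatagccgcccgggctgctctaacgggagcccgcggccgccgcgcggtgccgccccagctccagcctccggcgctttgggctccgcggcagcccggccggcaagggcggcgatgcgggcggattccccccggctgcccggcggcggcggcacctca
The first 3 each hold CCGGAAG on one of the strands, 2 times in 5430416N02Rik. Gm12843 holds none of the motifs marked, and holds GGGCGG, the letters bound by SP1, at 6 places. Over all 15 members with a peak at both times and a listed promoter start within 1 kb of the summit, 4 held CCGGAAG (26.7%), against 8.86% of all 32849 promoters of the table and 21.4% of the 706 protein-coding promoters with a summit within 1 kb.

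**Figure D1:**
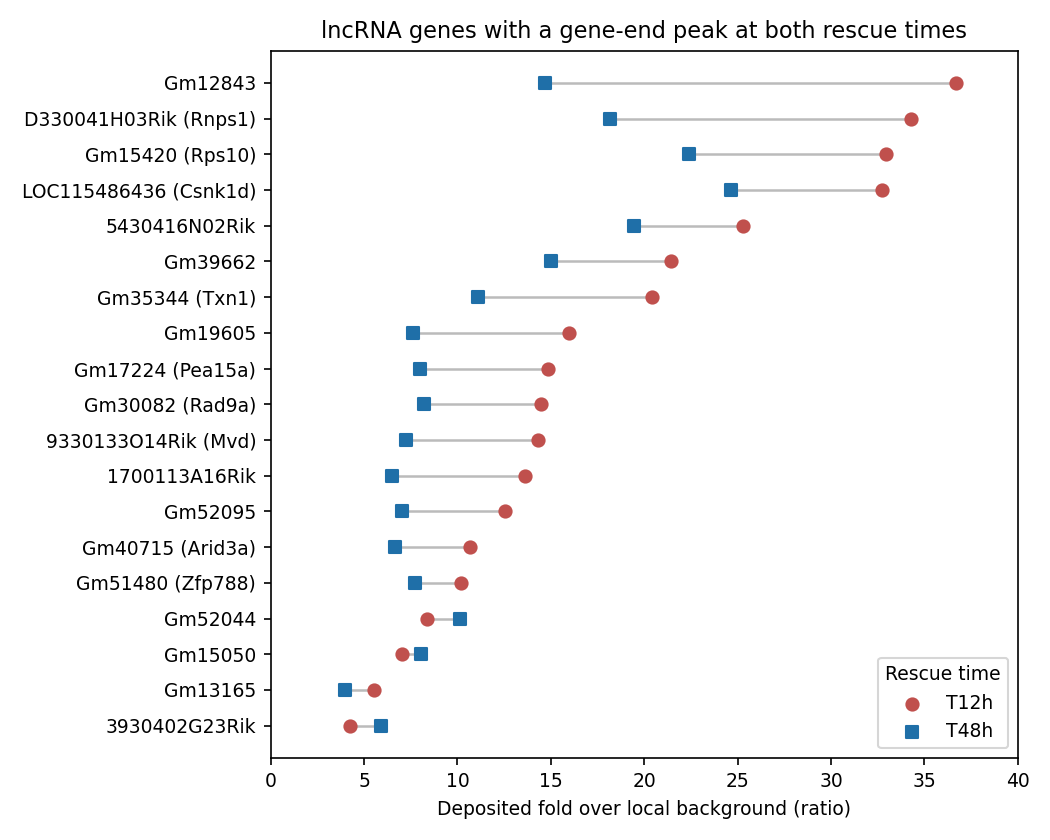
Deposited fold (ratio of tags to local background, x axis) of the strongest gene-end peak of each of the 19 lncRNA genes with a peak at T12h (circles) and T48h (squares), 1 library each, with any protein-coding gene whose end lies within 1 kb of the summit in brackets. The circle is to the right of the square for 16 of the 19 genes, and folds run from 4.25 to 36.69 at T12h and from 3.97 to 24.63 at T48h.

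Among the 19 genes bound at both times median folds were 14.46 (T12h) and 8.04 (T48h), and the T12h value was the higher at 16 of them. The median ratio of T12h to T48h was 1.60. In tags per kb of peak, scaled to the filtered library size, T12h was the higher at 18 of 19, with a median ratio of 1.47. With 1 library a time, a difference between the conditions cannot be told apart from one between the libraries. The 2 peaks overlapped at 18 of the 19 genes, and their summits were a median of 55 bp apart. Gm13165 was the exception, with summits 1056 bp apart, on either side of its start.

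Gm35344 starts opposite Txn1, the thioredoxin gene, and had 301 tags and a fold of 20.41 at T12h, against 189 tags and 11.08 at T48h. Gm39662 had no protein-coding end at its summit, with folds of 21.43 and 15.02 at T12h and T48h. Gm17224 starts opposite Pea15a, the gene of a death-effector-domain phosphoprotein, with folds of 14.87 and 8.01. All 3 folds were thus lower at T48h, as were those of the next genes. Gm30082 at Rad9a, a DNA damage checkpoint gene, had 14.46 and 8.19. 9330133O14Rik at Mvd, a gene of mevalonate and sterol synthesis, had 14.29 and 7.24. Gm40715 at Arid3a, a transcription factor gene, had 10.65 and 6.65, and Gm51480 opposite the zinc finger gene Zfp788 had 10.2 and 7.74. Gm19605 and Gm52095, whose summits lie inside Ppp2r5c and Tasor, the genes of a phosphatase subunit and of a subunit of the silencing complex HUSH, had T12h folds of 15.96 and 12.57. Their T48h folds were 7.61 and 7.02. No end of these genes lies within 1 kb of the summit, but the promoter table lists an opposite-strand start of Ppp2r5c 161 bp and of Tasor 104 bp from the lncRNA start. 1700113A16Rik had 13.61 at T12h and 6.52 at T48h. Gm13165, which overlaps the zinc finger gene Zfp600, had 5.51 and 3.97.

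The fold was the higher at T48h for 3 genes, all of them with weak T12h peaks. Gm52044 starts inside Mef2c, the gene of a muscle and neural transcription factor, and had 17 tags (exact Poisson 95% interval 9.90 to 27.2) and a fold of 8.38 at T12h. At T48h it had 39 tags (27.7 to 53.3) and a fold of 10.12. Its T12h score of 52.85 was among the lowest kept, since the calling limit is at 50, and its T48h score was 124.96. Gm15050 lies in the Hoxa cluster and its summit inside Hoxa3, and had 18 tags (10.7 to 28.4) and 20 tags (12.2 to 30.9), with folds of 7.02 and 8.04. For both genes the peaks differ in width and the libraries in depth, so the tag counts are not directly comparable. 3930402G23Rik had 40 and 32 tags and folds of 4.25 and 5.9, with both summits beyond the far end of the gene. These intervals cover counting error only.

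Genes with a peak at T12h alone had weaker peaks, with a median fold of 7.29 (3.57 to 12.59) and a median score of 81.87, where genes bound at both times had a median score of 704.09. A gene without a T48h peak is one where MACS listed none, and its T48h signal is not known from the list. Tug1, a lncRNA known from the developing mouse retina, had the highest score of them. Its T12h peak (chromosome 11, 3649038 to 3649681) had 88 tags, a score of 364.71 and a fold of 12.59. The summit lay 636 bp upstream of Tug1, which starts opposite Morc2a, the gene of a chromatin ATPase. That summit was inside Morc2a, 261 bp from an end of Morc2a, and a Morc2a start is listed 623 bp from the Tug1 start. This peak cannot be assigned to Tug1 or to Morc2a. Rnf227 followed with 133 tags and a fold of 7.48. The annotation used gives Rnf227 and Zfp783 the biotype lncRNA although their symbols are those of ring finger and zinc finger genes. Gm10190 had 2 T12h peaks, with folds of 8.93 and 6.87. Rsf1os2 had a fold of 10.3, Gm10910 one of 10.66, Gm52401 at Atl3 one of 11.16, and 3110083C13Rik opposite Micu2 one of 8.93. Gm52861 reached 972 tags, the most of any member peak, but over 4316 bp and with a fold of 3.57, the lowest of the T12h-alone genes. Gm52861, Zfp783 and F830010H11Rik, which starts opposite the Polycomb gene Ezh2, are 3 of the 7 members in windows of 1 Mb that hold 6 or more peaks of the list.

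Of the 49 T12h-alone members with a protein-coding gene end at the summit, all but 1 are named here with that neighbour, in order of score. They began with Tug1 with Morc2a, Rsf1os2 with Clns1a, Gm52401 with Atl3, 3110083C13Rik with Micu2, Gm9258 with Ptprs, 1700120B22Rik with Herc4 and Gm32059 with Bicra. Next by score came Lrp8os3 with Lrp8, Fcnaos with Ccdc183 and Rabl6, 4632404H12Rik with Ube2q1, Gm31966 with Arpin, Gm7467 with the circadian gene Clock, and 1700040D17Rik with Tdrkh, a gene of the germline piRNA pathway. Gm32816 with Tial1, Gm17399 with Cmc1, Gm32741 with Cacnb2, Gm11240 with Rasef, D430020J02Rik with Ncapg2, 3830408C21Rik with Kif2a and F830010H11Rik with Ezh2 followed. Then came Rbm46os with Rbm46, Gm4755 with Sdc1, AA386476 with Ing2, Stamos with Stam, Gm35693 with Rad54b and LOC115489931, and 1700112D23Rik with Eif5a2. Lower in score were Gm4890 with Mmaa, Gm17484 with Ddhd2, Gm31953 with Ctnnd2, 9430060I03Rik with Capn10, Gm33950 with Smc5, Gm51673 with Usp28 and 4930583K01Rik with Smg1. They were followed by Gm16196 with Srsf3, E130304I02Rik with Zfp507, Gm40464 with Xkr5, Kcnd3os with Kcnd3, Gm39859 with Hnrnpa3, and LOC115486295 with Paics and Ppat. The lowest were Gm30244 with Abhd6, Gm36279 with Zfp36l2, Gm17115 with Zfp871, Gm42029 with Dnajb1, Gm9861 with Snn, Gm40698 with Gm5134, 1700001G11Rik with Trim35, 1700007L15Rik with Zfp148 and Gm35824 with Rad18.

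The 46 T12h-alone members without such a neighbour were led by Rnf227, Gm10190, Gm52861, Gm10910, Zfp783, 1700012D14Rik, 1700003G18Rik, Gm51586, LOC108167356, Gm34510 and Gm6249. They also included 9430037G07Rik, Gm26567, 2410080I02Rik, B430319G15Rik, Gm40569, Gm30301, A730013G03Rik, Gm15351, Epb41l4aos, Gm30765, Gm13752 and Gm17801. Among them 1700003G18Rik and, lower in score, Gm34451 have a listed opposite-strand start of a protein-coding gene near their own, of 1110004F10Rik at 231 bp and Mtarc2 at 61 bp. Including Gm19605 and Gm52095, this holds for 4 of the 39 promoters counted as having no protein-coding end at the summit, since the count uses gene ends and not every listed start. Further members lower in score were Gm41070, Gm51929, Gm39195, Gm26611, 9330159M07Rik, 4930433N12Rik, Gm31138, G530011O06Rik, Gm19276, Gm9895, Gm32652 and Gm35572. The last were Gm34331, Gm51960, Gm34451, Gm26682, Gm41259, Gm36170, Gm30136, Gm52777, Gm40237, Gm41089 and 5930430L01Rik. With a protein-coding end at the summit the T12h fold had a median of 7.84 (4.55 to 34.31, 58 genes), and without one 7.27 (3.57 to 36.69, 56 genes). At T48h the medians were 7.88 (16 genes) and 7.02 (17 genes).

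**Figure D2:**
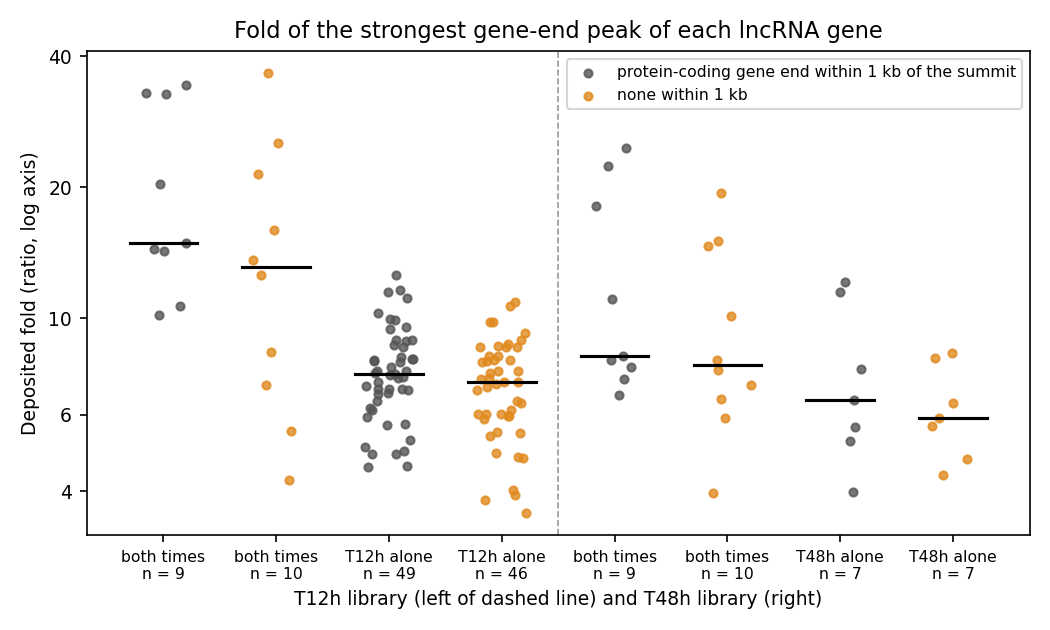
Deposited fold (ratio, log axis) of the strongest gene-end peak of each lncRNA gene, in the T12h library on the left and the T48h library on the right, for genes with a peak at both times or at 1 time alone. Grey points have a protein-coding gene end within 1 kb of the summit, orange points have none, and bars are medians. The folds of T12h-alone genes stop at 12.59, while genes bound at both times reach 36.69.

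At T48h alone, 14 genes had a gene-end peak, with a median fold of 6.15 (3.99 to 12.15). The strongest were the neighbours of Lhx2, an eye field transcription factor gene, and of Esrrb, a pluripotency gene of the orphan nuclear receptor family. Gm13584 overlaps Lhx2 and had 2 T48h peaks, 1 at each end. The peak at its start (chromosome 2, 38368807 to 38369633) had 130 tags, a score of 474.34 and a fold of 12.15, and the one at its far end had 38 tags and a fold of 6.32. The summit at the Gm13584 start lay inside Lhx2, 766 bp from an Lhx2 gene end, with no listed Lhx2 start within 1 kb. Gm40483 at Esrrb had 53 tags and a fold of 11.47. The other T48h-alone members with a protein-coding neighbour were 4933439C10Rik with Zkscan17, B230354K17Rik with Cdc5l, Gm39362 with Dpp8, Gm15506 with Thap12 and Gm10644 with Asf1b. Those without one were 1700091J24Rik, Gm40031, Gm32830, B930059L03Rik, Gm41084, Gm34907 and Lnclep. Of these 4933439C10Rik also had a T12h peak of fold 8.33 whose summit lay 1089 bp from its end, just outside the limit, so its place among the T48h-alone genes rests on that limit. Peak summits just inside 1 kb, at 906 to 994 bp, had folds of 4.25 to 8.93, and those just outside, at 1007 to 1096 bp, had folds of 3.33 to 30.69.

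The promoter of Gm13584 is shown as the one with the strongest T48h-alone peak, with capitals as above.
Gm13584 (chr2:38368796-38369095, minus strand): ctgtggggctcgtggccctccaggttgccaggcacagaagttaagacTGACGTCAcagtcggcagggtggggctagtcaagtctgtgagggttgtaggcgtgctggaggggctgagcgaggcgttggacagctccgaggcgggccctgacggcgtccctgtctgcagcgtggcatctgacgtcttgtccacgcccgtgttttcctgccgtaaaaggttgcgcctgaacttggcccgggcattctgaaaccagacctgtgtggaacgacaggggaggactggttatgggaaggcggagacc
It holds TGACGTCA, which begins 203 bases before the start. The motif was in 2 of the 11 promoters of T48h-alone members, 1 of 63 of T12h-alone members and 1 of 15 of those bound at both times, against 1.79% of all promoters of the table. Protein-coding promoters with a summit within 1 kb held it in 4.39%.

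The promoter table gives a strand and start for 103 of the 128 members, and for 89 of these a summit lay within 1 kb of a listed start. The other 14 had no summit there. They include 3930402G23Rik, Gm15351 and Gm6249, with summits near the far end, and Rbm46os, with a summit 219 bp from the gene's first base but farther than 1 kb from the start that the promoter table lists. Among pairs of gene and peak within 1 kb, a limit that bounds the distance, summits lay at a median of 239 bp from the start at T12h (82 pairs) and 304 bp at T48h (28 pairs). They were upstream of the start in 48 of 82 pairs at T12h and 15 of 28 at T48h.

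**Figure D3:**
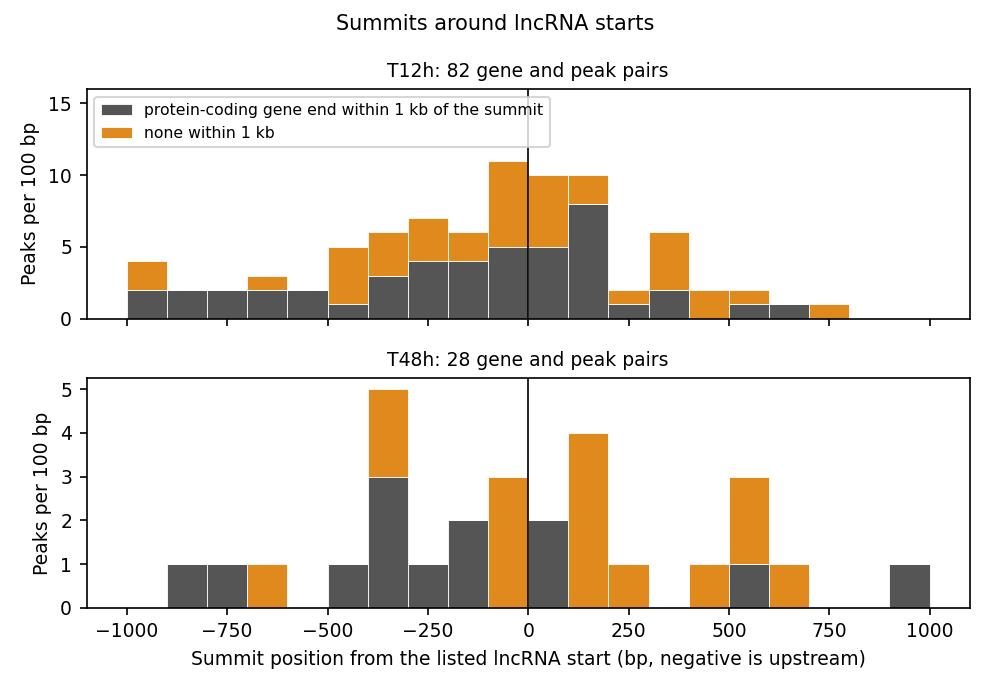
Number of summits per 100 bp (y axis) by their position from the listed lncRNA start (x axis, bp, negative is upstream), for 82 pairs of gene and peak at T12h and 28 at T48h. Grey counts summits with a protein-coding gene end within 1 kb and orange those with none. The T12h summits are most dense around the start, with 42 of 82 within 250 bp of it.

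Of the 65 members with a protein-coding neighbour, both genes have a listed strand and start in 48. In 42 of these 48, both starts lay within 1 kb of the summit on opposite strands, as for Tug1 with Morc2a and Gm15420 with Rps10. For Kcnd3os and Gm39362, which are among the 42, the table lists no opposite-strand protein-coding start within 1 kb of their own start. In 2 pairs, Gm9258 with Ptprs and Gm31953 with Ctnnd2, both starts were on the same strand. In Gm30244 and Rbm46os only the start of the neighbour was at the summit, and in Gm13584 and Gm33950 only that of the lncRNA. Counted for all lncRNA genes in the table, whether or not a summit lay between the starts, a protein-coding start on the opposite strand lay within 1 kb of a start for 47 of 103 members (45.6%). The share was 1119 of 9413 other lncRNA genes (11.9%). Members and other lncRNA genes differ in this share, with no test of the difference made here. Members were shorter, with a median length of 5789 bp against 8445 bp for all lncRNA genes, and 57 of 128 (44.5%) overlapped a protein-coding gene, against 36.0%.

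Promoters of members were rich in CpG. The promoter windows are those of listed starts within 1 kb of a summit, and 27 of the 89 contain the summit, so their letters are not those of the peak in the others. The median GC content of the 89 promoters was 62.0% (39.3 to 81.7), against 48.3% for 11445 promoters of other lncRNA genes and 63.7% for protein-coding promoters with a summit within 1 kb. With CpG-rich taken as at least 50% GC and an observed to expected CpG ratio of at least 0.6, 62 of 89 members (69.7%) met it, against 11.5% of other lncRNA promoters. Protein-coding promoters met it in 83.4% with a summit within 1 kb and in 45.1% of all. Among members the share was 41 of 50 (82.0%) with a protein-coding end at the summit and 21 of 39 (53.8%) without. Other lncRNA promoters were CpG-rich in 61.5% with an opposite-strand protein-coding start within 1 kb and in 5.16% without one. By time, the share was 10 of 15 for members bound at both times, 47 of 63 at T12h alone and 5 of 11 at T48h alone.

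**Figure D4:**
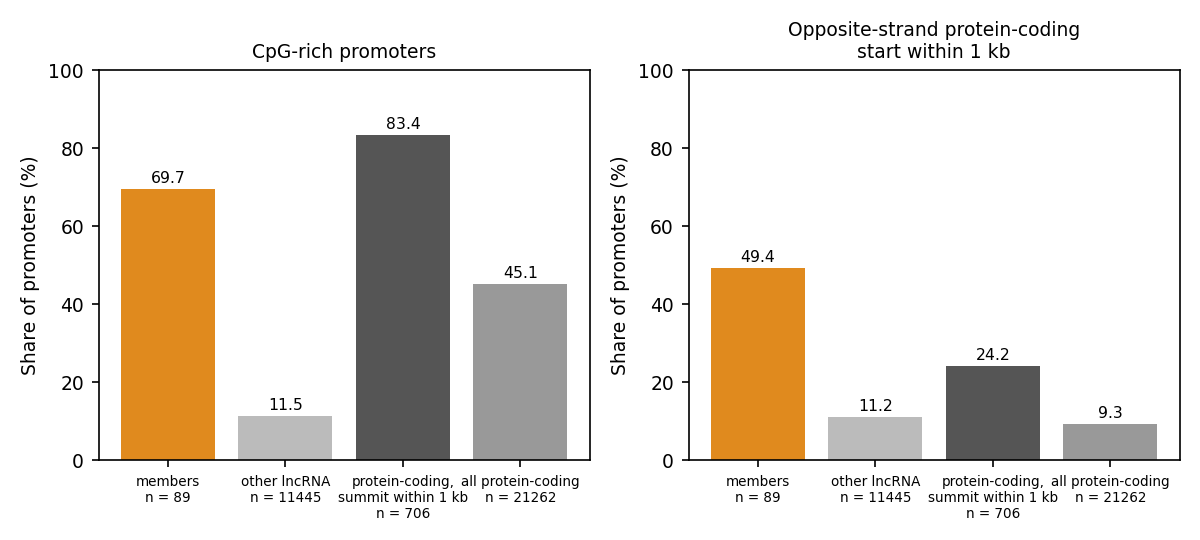
Share of promoters (y axis, %) that are CpG-rich (left) and that have a protein-coding start on the opposite strand within 1 kb (right), for the 89 members with a listed start within 1 kb of a summit, other lncRNA genes, protein-coding genes with a summit within 1 kb and all protein-coding genes. Members stand at 69.7% and 49.4%, other lncRNA promoters at 11.5% and 11.2%. Protein-coding promoters with a summit within 1 kb stand at 83.4% and 24.2%, and all protein-coding promoters at 45.1% and 9.29%.

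The E-box, the letters bound by MYC with MAX, was found in 16 of the 89 member promoters (18.0%). It was in 7.15% of all promoters of the table, 5.80% of other lncRNA promoters and 16.4% of protein-coding promoters with a summit within 1 kb. Without a protein-coding end at the summit the count was 11 of 39 (28.2%), and with one 5 of 50 (10.0%). These 11 members are 1700113A16Rik, 4930433N12Rik, 5930430L01Rik, 9330159M07Rik, B930059L03Rik, Gm15050, Gm26567, Gm26611, Gm31138, Gm34510 and Zfp783. They hold 10 separate sites, since 9330159M07Rik and Gm26611 share one, 4930433N12Rik and Gm31138 share another, and 5930430L01Rik holds 2. The nearest E-box lay within 250 bp of the summit in 15 of the 16 members and within 100 bp in 7, with a median of 153 bp, in a window that itself limits this distance. In Zfp783 it lay 1 bp from the summit, in 1700113A16Rik 38 bp and in Gm15050 182 bp.

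Promoters of 5 of these genes are shown for their E-boxes, with capitals as above, and Gm26611 and Gm26567 also as copies of each other.
1700113A16Rik (chr3:88177736-88178035, minus strand): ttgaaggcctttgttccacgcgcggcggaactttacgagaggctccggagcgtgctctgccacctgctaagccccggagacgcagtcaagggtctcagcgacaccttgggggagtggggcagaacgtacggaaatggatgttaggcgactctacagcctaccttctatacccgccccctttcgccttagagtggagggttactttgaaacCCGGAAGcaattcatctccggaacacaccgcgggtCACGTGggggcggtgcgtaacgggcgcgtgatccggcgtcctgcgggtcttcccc
Gm15050 (chr6:52172631-52172930, plus strand): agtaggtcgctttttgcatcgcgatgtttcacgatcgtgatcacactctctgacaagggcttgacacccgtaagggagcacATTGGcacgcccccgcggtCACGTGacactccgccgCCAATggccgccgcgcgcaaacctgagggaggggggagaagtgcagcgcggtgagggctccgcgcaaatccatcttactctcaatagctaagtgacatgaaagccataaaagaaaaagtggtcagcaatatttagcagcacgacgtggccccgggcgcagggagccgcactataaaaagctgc
Zfp783 (chr6:47942925-47943224, plus strand): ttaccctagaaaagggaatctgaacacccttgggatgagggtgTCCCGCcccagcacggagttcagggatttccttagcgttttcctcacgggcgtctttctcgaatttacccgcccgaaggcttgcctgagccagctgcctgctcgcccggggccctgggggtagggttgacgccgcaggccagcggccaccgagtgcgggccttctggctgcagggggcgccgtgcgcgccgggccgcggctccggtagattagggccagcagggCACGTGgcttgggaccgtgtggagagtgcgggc
Gm26611 (chr9:88858718-88859017, plus strand): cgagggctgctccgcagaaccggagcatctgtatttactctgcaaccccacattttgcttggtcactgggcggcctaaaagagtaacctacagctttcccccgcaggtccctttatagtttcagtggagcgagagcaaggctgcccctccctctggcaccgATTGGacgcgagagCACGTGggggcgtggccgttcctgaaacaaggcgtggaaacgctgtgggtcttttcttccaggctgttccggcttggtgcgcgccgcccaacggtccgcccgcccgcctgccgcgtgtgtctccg
Gm26567 (chr9:88599390-88599689, plus strand): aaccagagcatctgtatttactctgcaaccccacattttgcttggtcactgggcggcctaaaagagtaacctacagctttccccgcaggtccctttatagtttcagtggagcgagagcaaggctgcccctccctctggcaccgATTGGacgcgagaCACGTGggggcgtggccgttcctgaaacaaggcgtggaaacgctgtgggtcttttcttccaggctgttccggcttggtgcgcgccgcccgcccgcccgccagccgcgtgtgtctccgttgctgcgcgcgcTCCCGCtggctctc
Other motifs searched were TCCCGC in 28 of 89 (31.5%, against 19.98% of all promoters), CCAAT in 38 (42.7% against 37.4%) and GGGCGG in 50 (56.2% against 35.7%). The NRF1 motif was in 10 (11.2% against 4.603%), CCGGAAG in 10 (11.2% against 8.86%), TATAAA in 8 (8.99% against 13.6%), AANATGGC in 5 (5.62% against 6.05%) and TGACGTCA in 4 (4.49% against 1.79%). Of the 706 protein-coding promoters with a summit within 1 kb, 45.6% held TCCCGC, 34.8% CCAAT, 66.4% GGGCGG and 15.6% the NRF1 motif. In the same set 21.4% held CCGGAAG, 7.08% TATAAA, 9.21% AANATGGC and 4.39% TGACGTCA. Matches were counted on both strands and may overlap each other. A match is a run of letters and does not show binding.

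Gm26611 and Gm26567, on chromosome 9, each start opposite another lncRNA gene. Gm26611 shares 1 T12h peak (88858886 to 88859088, 20 tags, fold 7.55) with 9330159M07Rik, a snoRNA host gene listed also as mU50hg-a. Gm26567 shares another (88599572 to 88599822, 29 tags, fold 8.57) with 9430037G07Rik, which also holds a snoRNA gene in the annotation. Both of these peaks thus lie beside lncRNA genes that hold a snoRNA gene and have no Snhg symbol. When the promoters of Gm26611 and Gm26567 were aligned, 271 bases were identical and 2 differed, with 54 gap positions. For the promoters of their partners 9330159M07Rik and 9430037G07Rik, listed on the other strand, 172 bases were identical and 76 differed, with 104 gap positions. The partner starts lie at unlike distances from those of Gm26611 (88858870 against 88858968) and Gm26567 (88599243 against 88599640). These partner windows thus cover largely different stretches, and their alignment does not measure how alike the 2 copies are. Since the promoters of Gm26611 and Gm26567 are so alike, the tags of each copy are uncertain. How the aligner placed such reads is not given in the sources used here. Epb41l4aos is the third member that holds a snoRNA gene, with 39 tags and a fold of 4.78 at T12h alone.

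LncRNA genes with well-known roles were looked up by name. From 4 lists of WDR5-linked and Hox, nuclear and housekeeping, imprinting and X inactivation, and eye and neural lncRNAs, 42 genes are lncRNA genes of the annotation. Of these, 2 had a gene-end peak at T12h, Tug1 and Epb41l4aos (4.76%, against 0.897% of all lncRNA genes). At T48h 0 had one, against 0.26% of all lncRNA genes. None of the 9 WDR5-linked and Hox genes had one at either time. With shares this low, 0 among 9 or 42 genes is not a result about the lists. The lists were chosen with earlier results of these data known, and the Tug1 summit lies inside Morc2a, so the 4.76% is a description alone. The summit nearest to Hottip, the mouse counterpart of HOTTIP, was 90223 bp away at T12h and 90214 bp at T48h, and belongs to Gm15050. Hoxaas2 was 3101 bp from the same T12h summit. No gene-end peak was found for Malat1, Neat1, Xist, Meg3, H19 or Six3os1, and the nearest T12h summit to Rmst, a neural lncRNA, was 2096 bp from its end.

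Sharing between the times is given for member peaks beside peaks at protein-coding gene ends that serve no member, with no test. At T12h 18 of 116 member peaks overlapped a T48h peak (15.5%, exact binomial 95% interval 9.46 to 23.4), against 149 of 506 (29.4%, 25.5 to 33.6) and 225 of all 1197 peaks (18.8%, 16.6 to 21.1). At T48h the shares were 21 of 36 (58.3%, 40.8 to 74.5) and 149 of 181 (82.3%, 76.0 to 87.6), with 227 of all 660 peaks (34.4%, 30.8 to 38.2). The member share thus lay below that of the protein-coding set at both times, near that of all peaks at T12h and above it at T48h. The intervals treat the peaks of 1 library per time as independent and cover no difference between libraries. Median folds of the member peaks and of the protein-coding set were 7.46 and 7.83 at T12h, and 7.64 and 8.35 at T48h. In the same order, median scores were 86.1 and 102 at T12h, and 83.58 and 141.09 at T48h. Median tags were 36.5 and 41 at T12h, and 39 and 70 at T48h. The false discovery rate that the authors deposited for member peaks had a median of 2.93% at T12h (1.41 to 15.5) and 6.28% at T48h (2.17 to 19.1). Of the members with a T12h peak, 11 of 114 (9.65%) were on chromosome 8, which holds 5.56% of lncRNA genes. Members were chosen by peaks, and the share of all T12h peaks on chromosome 8 was not counted. An excess of lncRNA members there can thus not be read from these shares. In the windows with 6 or more peaks lay 7 of the 116 T12h member peaks, against 130 of all 1197.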

How the data were processed

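HA-hWDR5 was profiled by ChIP-seq in 2 groups of embryoid bodies, 1 ChIP and 1 input library each. The submitters' processing notes name the build mm10 and the tools Bowtie2, SAMtools 1.5, MACS 1.4.2, HOMER 4.9.1 and deepTools. Per the file headers, MACS 1.4.2 called each library against 1 control at a p cutoff of 1e-05, keeping 1 tag per position and scaling the larger library down. MACS estimated a fragment length d of 56 bp at T12h and 57 bp at T48h, per the file headers, close to the tag length. The deposited lists give per peak a tag count, a score (10 times the negative log10 of the p-value), a fold (ratio to local background) and a false discovery rate in percent. The authors' values were not recomputed.

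Gene ends, promoters (250 bases before to 50 after a start) and sequences came from RefSeq tables of GRCm38.p6, matched by gene ID. Chromosomes 1 to 19, X and Y were used. Members and lists were chosen with earlier results of these data known. Named genes were those bound at both times, the strongest at each time and class, those with established symbols, and list members, and others were chosen after their values were seen. Peaks overlapping by at least 1 bp were shared. Scripts ran in Python 3.11.15 with matplotlib 3.10.9, scipy 1.17.1, pandas 2.3.3 and numpy 2.4.6, and the search for gene ends and motifs was tested on simulated data. With 1 library per time no test between conditions was run. The neighbour pair of 1 member is not reported here.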

Additional observations from a re-analysis of the deposited data

How the results depend on the processing

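No paired analysis was possible because there was 1 library per time. Of 36 values recomputed under other settings, 30 stayed within 1.5 times the count or inside the 95% interval of the share, and 6 moved. At 5 kb the counts of lncRNA genes rose to 212 at T12h, 79 at T48h and 44 at both times, as a wider distance must. With peaks of the upper 50% by score alone, 69 lncRNA genes remained at T12h. Counting each peak for its single nearest gene left 10 genes at both times and a protein-coding neighbour for 35.2% of members, as genes with a nearer neighbour are not counted. The T12h fold was the higher at 84.2% of genes by fold and by score, and at 94.7% by tags per kb scaled to library size. The weakest member peaks held 13 tags at T12h and 20 at T48h, and the effect of depth on which peaks are listed was not tested. Strand is not known here for 25 members.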

Other observations

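Some lncRNA genes had internal peaks, more than 1 kb away from both ends, and are not among the genes above unless they also had a gene-end peak. At T12h 69 such peaks lay in 65 lncRNA genes, with a median fold of 6.70, and at T48h 43 lay in 42 genes, with a median fold of 6.62. Some of these peaks are also gene-end peaks of members, as in Gm32822 (that of Gm9258), Gm40513 (Gm36170) and Gm15411 (5930430L01Rik). Others had a protein-coding gene end within 1 kb of the summit. Of the internal peaks, 9 of 69 at T12h and 8 of 43 at T48h overlapped a peak of the other list, against 225 of 1197 and 227 of 660 of all peaks. The highest T12h scores were at Gm33690 (89 tags, fold 16) and Gm36355 (72 tags, fold 17.85). At T12h alone, Airn, the imprinted antisense RNA of the Igf2r locus, held one with 24 tags and a fold of 10.11, though a protein-coding gene end lay within 1 kb of its summit. Sox2ot, which overlaps the neural and pluripotency gene Sox2, held one with 37 tags and a fold of 5.41, and Dleu2, a host of miRNA genes, one with 25 tags and a fold of 6.36.

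The annotation lists 9 genes with the separate biotype antisense RNA, which the rule leaves out. The one with a gene-end peak was Gnasas1, an imprinted antisense transcript of the Gnas locus, with 53 tags and a fold of 8.6 at T12h and a summit 458 bp from its end.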
